A study of Prunus avium with 18 samples.

Results

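Flower buds of the sweet cherry (Prunus avium) cultivar 'Fertard' were compared after and before the cold season, with the 3 RNA-seq libraries of March 12, 2018 set against the 3 libraries of October 17, 2017. These are 6 of the 18 libraries of a series with 6 sampling dates, and the members were taken by the sampling date in their labels, with no use of expression. Each replicate came from buds of another tree. All buds were of 1 cultivar, grafted on 1 rootstock in 1 orchard, and no treatment was applied, so the groups differ in date and in everything that changed with it. In the scheme of the study October 17 lies at dormancy onset and March 12 in ecodormancy, when buds wait only for warmth, although its forcing tests of that season placed dormancy release later in March. Whole buds hold scales, stem tissue, vascular strands and flower primordia, and apart from the genes of xylem formation described below no marker list of these parts was used here, so the label of whole buds was not checked further. Fewer cells of a type and less RNA per cell cannot be told apart in such bulk samples.

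During winter dormancy the bud stays alive but does not grow, and exchange between its cells and with the twig is limited. Plant cells are joined by plasmodesmata, narrow channels through the wall whose neck is closed by callose, a β-1,3-glucan. Callose synthases make it, β-1,3-glucanases of the glycoside hydrolase family 17 (GH17) degrade it, and plasmodesmata callose-binding proteins (PDCB) hold it at the neck. Water and solutes also cross membranes through aquaporins and move through the cell wall, the apoplast, whose cellulose and pectin are built and modified by further enzyme families. The study chose candidate genes of these functions from the literature and by keywords in the annotation, of which 585 identifiers are used here, and the question here is which genes stood at another level once winter had passed, and which had come back to the level of autumn.

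The libraries held 10,095,600 to 12,186,256 counts on March 12 and 10,701,003 to 15,673,333 on October 17. A count was found for 29,862 to 30,007 genes per library on March 12 and for 28,270 to 28,868 on October 17, of 48,133 annotated genes. The 10 most counted genes took 2.41% to 2.58% of the counts on March 12 and 4.63% to 4.79% on October 17. Replicates varied beyond sampling error, since the chi-square statistic between pairs of libraries was 6.61 to 9.28 times its degrees of freedom on March 12 and 1.89 to 2.86 times on October 17. Levels are given as CPM, counts per 1,000,000 of the library size after scaling by the trimmed mean of M-values (TMM), in the order of replicates 1 to 3. CPM does not divide by gene length, so it compares the dates for a gene and not genes with each other. Fold changes are March 12 over October 17 from the quasi-likelihood fit of edgeR on all 18 libraries, with their standard error (SE), and p-values were adjusted by the Benjamini-Hochberg method over all genes tested.

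Buds of March 12 carried a broader and partly different set of transcripts. Of 26,248 genes tested, 3458 were higher on March 12 (13.2%) and 2028 were lower (7.73%), at an adjusted p under 0.05 and a change of more than 2-fold, which makes 5486 genes called (20.9%). For 14,562 genes (55.5%) the 95% interval of the fold change lay within 2-fold in either direction, and the remaining 6200 genes (23.6%) met neither condition. For 5380 of the 5486 called genes the libraries of the 2 dates did not overlap, so a gap between the dates adds little to a call. The median log2 fold change over all genes tested was 0.02. The changes were larger upward than downward. The called genes had a median log2 fold change of 1.90 among the higher and -1.58 among the lower ones. A fitted change beyond 16-fold was found for 517 higher and 167 lower genes, and beyond 64-fold for 221 higher and 36 lower genes. Without the fold threshold 7451 genes were higher and 6579 lower, and the share of higher genes among the calls was 53.1%, against 63% with it. The counts by size of the change show the same, with 1835 higher and 1339 lower genes in the smallest class and 117 higher and 9 lower genes in the largest.

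**Figure D1:**
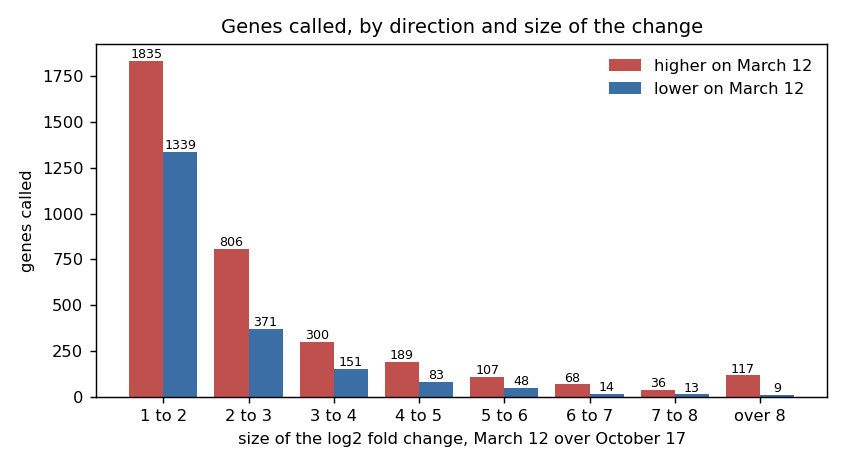
Number of genes called on March 12 against October 17 (y axis) by the size of the log2 fold change (x axis, classes of 1), with genes higher on March 12 in red and genes lower in blue. Higher genes outnumbered lower ones in every class, 1835 to 1339 from 1 to 2 and 117 to 9 above 8.

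The higher genes were mostly late. Of the 3458 genes higher on March 12, 2703 (78.2%) had their highest mean of all 6 dates on March 12 and 574 on February 12. Relative to October 17 their median log2 ratio was -0.11 in December, -0.14 on January 3, 0.10 on January 15, 0.32 on February 12 and 1.76 on March 12. On February 12, 1156 of them (33.4%) were nearer to their March than to their October level on the log2 scale. In the lower genes part of the difference from October was seen earlier. Of these 2028 genes 1123 (55.4%) had their highest mean on October 17 and 372 on January 3. Their median log2 ratio was already -0.70 in December, then -0.53 on January 3, -0.72 on January 15, -0.88 on February 12 and -1.50 on March 12. In December 910 of them (44.9%) were nearer to their March than to their October level, on January 3 800 (39.4%) and on February 12 1084 (53.5%). The October and March ends of these curves come from the calls themselves, and the winter dates were not used for the contrast. The October mean is also the denominator of every ratio. The shares with a highest mean on March 12 or October 17 and the winter ratios therefore depend in part on the selection. The same values were not computed over all genes tested, so they are a description and not a test.

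**Figure D2:**
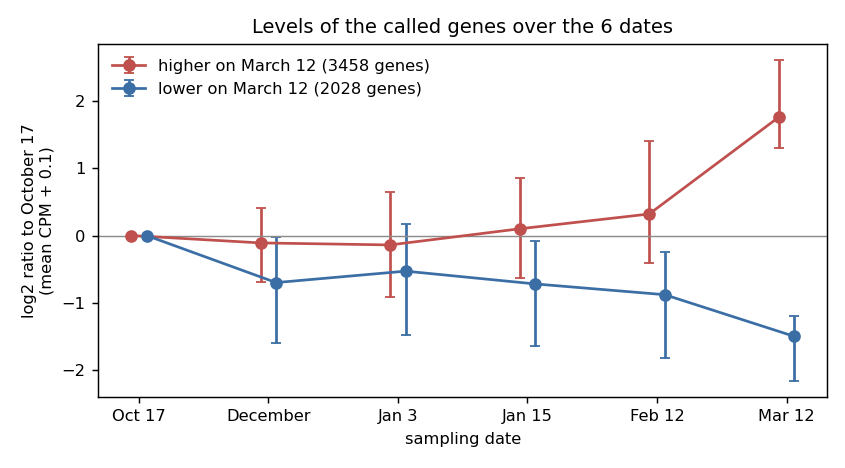
Median log2 ratio of the mean level to that of October 17 (y axis, 0.1 CPM added to each mean) at the 6 sampling dates (x axis) for the 3458 genes higher (red) and the 2028 genes lower (blue) on March 12, with bars from the lower to the upper quartile of the genes. The higher genes stayed between -0.14 and 0.32 until February 12 and stood at 1.76 on March 12. The lower genes were at -0.70 in December and -0.53 on January 3.

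Genes read at only 1 of the dates were found mainly in March. With at least 10 counts in each library of one date and none in any library of the other, 170 genes were read on March 12 alone and 13 on October 17 alone. Of the 170 March genes 83 had no count at any winter date either, against 1 of the 13 October genes. With a mean of at least 1 CPM as the limit, 22,862 genes were read on March 12 and 22,053 on October 17, of which 1670 reached it on March 12 and not on October 17 and 861 on October 17 and not on March 12. The filter of the study, which drops genes with counts of 0 in more than 75% of the 18 libraries, removed 129 genes with a sufficient mean count, and 128 of these had over 90% of their counts on March 12. Most genes read in March buds alone are therefore not among the 3458 higher genes, and only 59 of the 170 were tested.

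The most extreme genes outside the candidate list carry no name in the sources used here. PAV01g0050511 had 866, 885 and 1093 CPM on March 12 and no count on October 17, which makes it at least 13,137-fold higher with a floor of 3 counts over the October libraries. PAV07g0351591 had 2114, 1112 and 2892 CPM on March 12, against 1 count in the October libraries together. Through winter the 2 genes were read with at most 2 counts in any library. PAV05g0242071 and PAV03g0169721 showed the opposite, with no count on March 12 and 21.3 to 22.7 and 20.3 to 24.8 CPM on October 17, and were at least 249-fold and 248-fold lower on March 12. Their levels were already lower in winter, with December means of 5.19 ± 1.32 and 10.3 ± 3.48 CPM and February 12 means of 0.804 ± 0.419 and 0.716 ± 0.585 CPM (SD, n = 3).

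Among the transport candidates 316 of 585 were tested, 154 had no count in the 6 libraries, and 4 were left out by the rule on zeros alone. Of the 316, 70 were higher on March 12 (22.2%, beside 13.2% of all genes) and 29 lower (9.18%, beside 7.73%), and 130 (41.1%) kept within 2-fold by their interval, beside 55.5% of all genes. Their median log2 fold change was 0.23, beside 0.02. Symplasmic candidates, which concern plasmodesmata, callose and membrane channels, had 44 higher and 11 lower genes among 198 tested. Apoplastic candidates, which concern the cell wall, had 24 higher and 16 lower genes among 100, and vascular candidates 2 higher and 2 lower genes among 18. By family the calls ran from mostly higher (pectinesterases, 12 of 19) to none (callose synthases, 0 of 26). Candidates hardly read outside March 12, such as GH-like_17, or outside October 17, such as beta glucosidase 6_2, passed the filter only through that date. The shares above and those of the families rest in part on such members. Named candidates are partly the key genes of the study, partly the largest change of each family, and partly further members chosen after their values were seen.

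**Figure D3:**
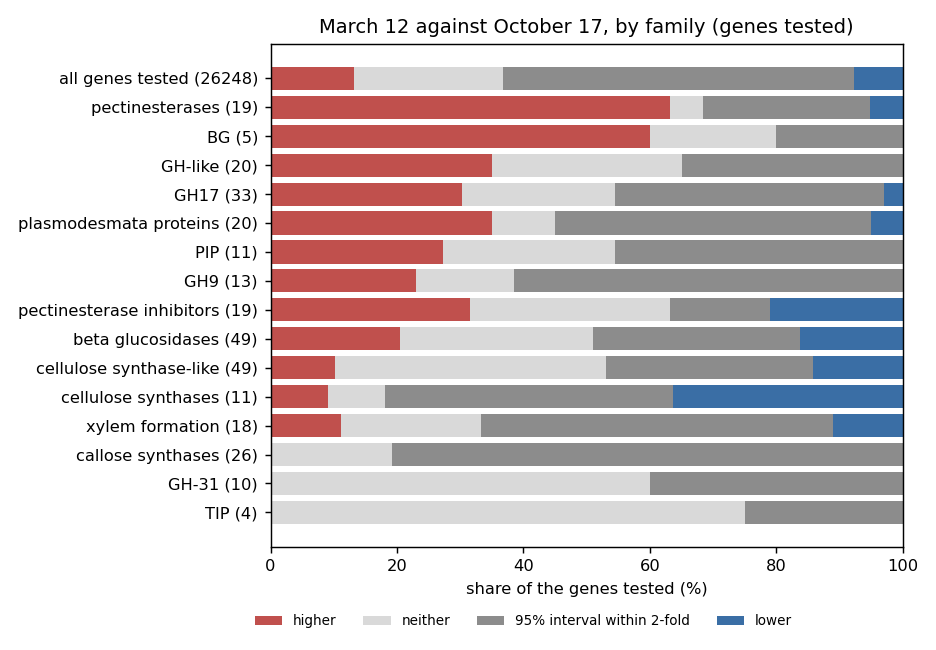
Share of the genes tested in each family (x axis, percent; number tested in parentheses) that were higher on March 12 (red), lower (blue), kept within 2-fold by the 95% interval (dark grey) or met neither condition (light grey), with all 26,248 genes tested in the top row. Pectinesterases had 12 of 19 members higher, cellulose synthases 4 of 11 lower, and callose synthases none in either direction.

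Among the proteins that bind callose at the plasmodesmata 3 of 5 were higher (60%, beside 13.2% of all genes) and the others kept within 2-fold. PDCB5B (PAV04g0184851) had 498, 518 and 385 CPM on March 12 and 1.38, 1.69 and 1.42 CPM on October 17, a 307-fold difference (log2 fold change 8.26, SE 0.18, edgeR adjusted p = 5.63e-16). Its mean stayed between 1.13 and 1.86 CPM at the 4 winter dates, so the high level was seen only in the March libraries. PDCB3C had 4.46, 4.82 and 8.74 CPM on March 12 and 1.20, 1.00 and 1.35 CPM on October 17 (log2 fold change 2.33, SE 0.31, edgeR adjusted p = 6.11e-06). Its dates did not overlap, as in nearly all called genes. PDCB5A had 35.8, 24.8 and 25.8 CPM on March 12 and 15.8, 13.2 and 13.4 CPM on October 17, a log2 fold change of 1.03 that lost its call without replicate 1 of March 12 (0.82) or replicate 2 (0.98) or 3 (0.99) of October 17 and with upper quartile factors (0.99). The other members, PDCB3 and PDCB3A, were not called. Among all 20 plasmodesmata proteins tested 7 were higher (35%, beside 13.2% of all genes) and 1 lower (5%, beside 7.73%), with a median log2 fold change of 0.11.

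Genes with an X8 domain alone, the carbohydrate-binding domain shared with the PDCB proteins, moved in both directions. Of 6 tested 4 were higher (66.7%, beside 13.2% of all genes) and 1 lower (16.7%, beside 7.73%). Carbohydrate-binding X8_1 had 8.84, 9.72 and 9.80 CPM on March 12 and 1.20, 1.19 and 1.49 CPM on October 17, after a mean of 0.0929 ± 0.0909 CPM on February 12 (SD, n = 3). Carbohydrate-binding X8_2 had 2.51, 2.45 and 1.75 CPM on March 12 and 7.91, 6.59 and 8.05 CPM on October 17 (log2 fold change -1.73, SE 0.25, edgeR adjusted p = 1.1e-05). The plasmodesmata-located proteins (PDLP), receptor-like proteins that control traffic through the channel and in Arabidopsis promote callose deposition, gave no call in edgeR among 7 tested. Of these, 3 had an unadjusted p under 0.05, DESeq2 also called none, and 6 kept within 2-fold. PDLP8 had the largest value, 8.75, 10.4 and 9.03 CPM on March 12 and 6.44, 4.89 and 4.81 CPM on October 17 (log2 fold change 0.81, SE 0.22, edgeR adjusted p = 0.0043), which does not reach 2-fold.

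Most callose synthases stood at a similar level after and before winter. None of the 26 tested was called by edgeR, beside 20.9% of all genes, or by DESeq2. Of the 26, 11 had an unadjusted p under 0.05, and 21 kept within 2-fold by their interval, beside 55.5% of all genes. Their log2 fold changes lay between -0.59 and 1.44 with a median of -0.27, and 6 of 26 were above 0. GSL-like1 had 388, 487 and 470.2 CPM on March 12 and 359, 384 and 376 CPM on October 17 (log2 fold change 0.26, 95% interval 0.08 to 0.45). GSL-like9 had 157, 237 and 259 CPM on March 12 and 280.2, 318 and 328 CPM on October 17 (log2 fold change -0.51, 95% interval -0.84 to -0.17). GSL_10A, at the upper end of the range, was read at under 1 CPM in each of the 6 libraries and its interval ran from -0.25 to 3.13. Without the fold threshold 1 callose synthase was higher and 6 were lower.

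β-1,3-glucanases are the enzymes of callose degradation. Of 33 GH17 genes tested 10 were higher (30.3%, beside 13.2% of all genes) and 1 lower (3.03%, beside 7.73%), with a median log2 fold change of 0.54, and 14 kept within 2-fold. GH17_39 (PAV01g0026401) had 391, 456 and 382 CPM on March 12, against 1 count in the 3 October libraries together and none at any winter date. The ratio of the dates was 17,045, with a 95% counting interval from 3059 to 673,302, and the gene is outside the 33 because the rule on zeros left it out. The fit without that rule called GH17_39 higher, but it reaches the limit on the mean count only through March 12. That call therefore adds nothing to its counts. GH-17-like_2 had 25.5, 30.8 and 13.6 CPM on March 12 and 0.0920, 0.0628 and 0.338 CPM on October 17 (log2 fold change 7.04, SE 0.52, edgeR adjusted p = 3.53e-09). GH17_9 had 19.2, 16.7 and 6.41 CPM on March 12 and 1.10, 0.816 and 0.745 CPM on October 17. For these genes the lowest March library was above the highest October library, and 5380 of all 5486 called genes likewise had no overlap.

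Other GH17 genes were already high in late winter. GH17_22 had 206, 154 and 211 CPM on March 12 and 16.2, 8.72 and 22 CPM on October 17, a 12.2-fold difference (edgeR adjusted p = 3.26e-07), but its mean was 1223 ± 471 CPM on February 12 (SD, n = 3). GH17_34 likewise had 57.5, 80.4 and 100.4 CPM on March 12 and 19.7, 17.6 and 14.8 CPM on October 17, with 102 ± 33.8 CPM on February 12. The March level of these genes was thus above that of autumn and not above that of February. GH17_3, GH17_5 and GH17_25 had log2 fold changes of 1.40 (SE 0.10), 1.11 (SE 0.15) and 1.34 (SE 0.19). As in nearly all called genes, their dates did not overlap. GH17_5 had 182, 179 and 168 CPM on March 12 and 82.2, 84.3 and 78.7 CPM on October 17.

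GH17_29 (PAV04g0184211) was the only GH17 gene called lower among the 33 tested, with 15.2, 17.1 and 16.2 CPM on March 12 and 44.9, 44.9 and 47.0 CPM on October 17, 2.82-fold lower (edgeR adjusted p = 1.04e-08), and a mean of 30.4 ± 5.75 CPM on February 12 (SD, n = 3). GH17_19 had 39.2, 39.5 and 38.5 CPM on March 12 and 18.9, 20.9 and 19.5 CPM on October 17, a log2 fold change of 0.98 just under the threshold, and it was called without replicate 2 of October 17 (1.03). GH17_28 kept within 2-fold, with 78.7, 88.9 and 81.6 CPM on March 12 and 75.6, 75.7 and 72.7 CPM on October 17, as did GH17_30 (log2 fold change 0.45) and GH17_13 (-0.51).

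Of the BG genes, further β-1,3-glucanases, 3 of 5 tested were higher, beside 13.2% of all genes, and none lower. One of the higher genes, BG_3A, had 4, 4 and 3 counts on March 12 and 0, 1 and 0 on October 17, and lost its call without replicate 1 (edgeR adjusted p = 0.0514) or 3 (0.0674) of October 17 and with DESeq2 on the 6 libraries (0.0604). The 13 listed BG genes carry identifiers that lie close together in part, and counts of near-identical copies are uncertain because reads that align to several places are in general not counted by HTSeq. BG_3C had 272, 299 and 361 CPM on March 12 and 52.8, 47.2 and 61.4 CPM on October 17, 5.78-fold higher (edgeR adjusted p = 1.19e-05), below its mean of 2825 ± 1184 CPM on February 12 (SD, n = 3). BG_3E had 41.5, 69.5 and 60.3 CPM on March 12 and 1.38, 1.00 and 0.338 CPM on October 17. BG_1A had 1.22, 1.75 and 1.46 CPM on March 12 and 1.01, 0.690 and 0.812 CPM on October 17 and was not called (log2 fold change 0.83, edgeR adjusted p = 0.0749). The pathogenesis-related thaumatin superfamily protein, a defence protein of the remaining symplasmic candidates, had 34.9, 30.4 and 22.3 CPM on March 12 and 0.460, 0.377 and 0.880 CPM on October 17, with its highest mean of 111 ± 41.9 CPM on January 15. In the same group the Six-hairpin glycosidases gene was lower, with 3.16, 2.72 and 2.23 CPM on March 12 and 7.45, 5.40 and 4.81 CPM on October 17, a log2 fold change of -1.10 that lost its call without replicate 1 of October 17 (-0.91) or replicate 3 of March 12 (-0.99).

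**Figure D4:**
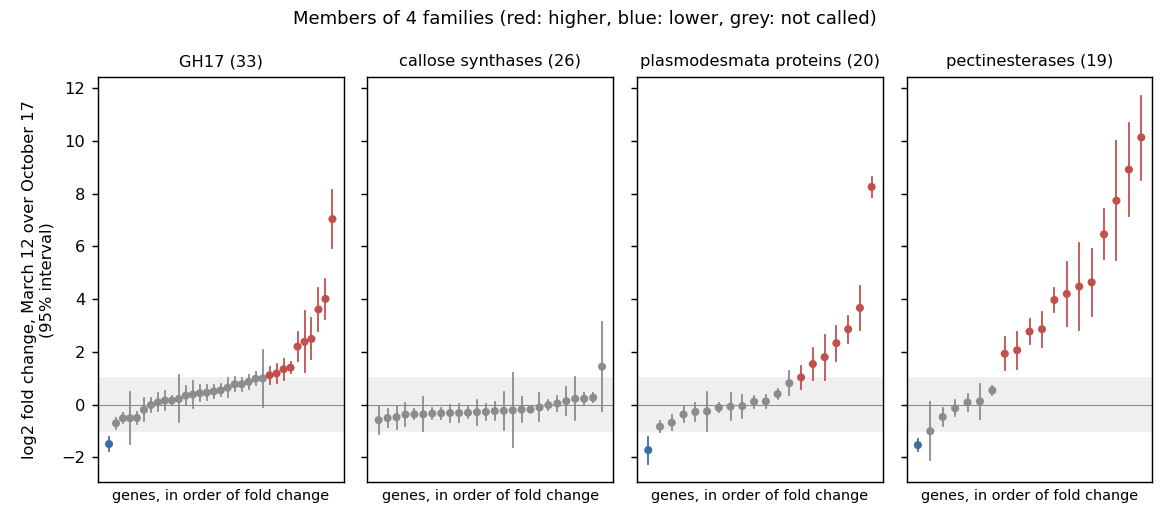
Log2 fold change of March 12 over October 17 with its 95% interval (y axis) for each gene tested of 4 families, in order of size (x axis). The shaded band marks changes within 2-fold. The 26 callose synthases lie around 0, 10 of 33 GH17 genes and 7 of 20 plasmodesmata proteins lie above the band as higher genes, and 12 of 19 pectinesterases do so with values up to 10.14.

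In the remaining glycoside hydrolases the changes were scattered. Of 20 GH-like genes tested 7 were higher (35%, beside 13.2% of all genes) and none lower in edgeR, beside 7.73% of all genes, while 3 lower ones had an unadjusted p under 0.05 and DESeq2 called none of them lower. GH-like_17 and GH-like_39, hardly read in autumn and winter, passed the filter only through their March counts. The share of higher genes rests in part on such members. GH-like_25 (PAV03g0174001), annotated as an endo-1,3(4)-β-glucanase with a homeodomain-like best match in Arabidopsis, had 83.7, 83 and 75.2 CPM on March 12 and no count on October 17 or at any winter date, at least 1117-fold higher. It was left out of the test by the rule on zeros, as was homeobox-3, a symplasmic candidate annotated in part as a beta glucosidase, with 13.2, 14.1 and 27.3 CPM on March 12 and none on October 17. GH-like_17 had 16.3, 11.5 and 3.01 CPM on March 12 and 0, 0.126 and 0.0677 CPM on October 17, a ratio of 148 with a 95% counting interval from 50.2 to 719.8. GH-like_5 had 128, 141 and 138 CPM on March 12 and 27.8, 24.8 and 22.2 CPM on October 17 (log2 fold change 2.45, SE 0.22, edgeR adjusted p = 4.05e-08).

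Beta glucosidases, enzymes that release sugars from a range of glucosides, moved in both directions, with 10 higher (20.4%, beside 13.2% of all genes) and 8 lower genes (16.3%, beside 7.73%) among 49 tested. Beta glucosidase 2_7 had 41.4, 43.2 and 53.4 CPM on March 12 and 0, 0.314 and 0 CPM on October 17 (log2 fold change 8.48, SE 0.46, edgeR adjusted p = 7e-11). The lower end was held by a pair with neighbouring identifiers on chromosome 7. Beta glucosidase 6_2 (PAV07g0336641) had 0, 0 and 0.194 CPM on March 12 and 9.48, 7.84 and 7.92 CPM on October 17, and beta glucosidase 36_17 (PAV07g0336631) 0.243, 0.0876 and 0.777 CPM on March 12 and 9.48, 9.41 and 8.05 CPM on October 17. Their levels had already dropped in December, to means of 0.145 and 0.0307 CPM, and no later winter mean was above 0.0556 CPM. Both genes passed the filter only through their October counts. Beta glucosidase 36_34, 36_12 and 36_21 had their call from replicate 3 of March 12, without which their edgeR adjusted p was 0.229, 0.229 and 0.376, and beta glucosidase 36_21 also lost it without replicate 2 of October 17 (0.0581). The lower call of beta glucosidase 36_33 (log2 fold change -1.23) was lost with DESeq2 (adjusted p = 0.0675). It was also lost without replicate 1 (edgeR adjusted p = 0.165) or 2 (0.113) of March 12 and without any replicate of October 17. Of 13 GH9 genes tested, endoglucanases that act on cellulose, 3 were higher (23.1%, beside 13.2% of all genes), among them GH9_17 with a mean of 108 ± 5.77 CPM on March 12 and 12.8 ± 1.26 CPM on October 17 (SD, n = 3 each). GH9_17 was already at 90.2 ± 22.4 CPM in December and at 38.4 ± 4.26 CPM on February 12, and October 17 was its lowest date. GH9 and GH-31 gave no lower call in edgeR or DESeq2, and GH-31 no higher one among 10 tested. At an unadjusted p under 0.05, 0 of 13 GH9 genes and 3 of 10 GH-31 genes were lower, and 4 GH-31 genes were higher.

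Aquaporins of the plasma membrane (PIP), the water channels between cell and apoplast, had 3 of 11 members higher (27.3%, beside 13.2% of all genes) and none lower in edgeR or DESeq2, beside 7.73% of all genes, though 3 lower ones had an unadjusted p under 0.05. PIP1B1 had 142, 147 and 109 CPM on March 12 and 31.9, 27.9 and 25.7 CPM on October 17, 4.67-fold higher (log2 fold change 2.22, SE 0.12, edgeR adjusted p = 9.92e-11). PIP1C had 678, 662 and 636 CPM on March 12 and 323, 319 and 291 CPM on October 17, after 166 ± 23.8 CPM on February 12 (SD, n = 3). PIP3B had 644, 633 and 585 CPM on March 12 and 311, 301 and 286 CPM on October 17, after 129.8 ± 35.8 CPM on February 12. For PIP1C and PIP3B March 12 was the highest date and February 12 the lowest.

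The other 8 PIP genes tested were not called, with values on either side of the autumn level. PIP2F had 141, 104 and 116 CPM on March 12 and 124, 119.9 and 119 CPM on October 17, a log2 fold change of -0.00 with a 95% interval from -0.21 to 0.20, while its mean on January 3 was 21.8 ± 1.90 CPM (SD, n = 3). PIP1B3 also kept within 2-fold (log2 fold change -0.16, 95% interval -0.37 to 0.05). PIP2D2 had 689, 669.8 and 699 CPM on March 12 and 1171, 1159 and 1099.8 CPM on October 17, a log2 fold change of -0.74 that does not reach the threshold. PIP2A1, with 3.32, 2.45 and 2.33 CPM on March 12 and 5.34, 4.46 and 5.35 CPM on October 17, was called lower without replicate 1 of March 12 (log2 fold change -1.09). PIP1B2 had a log2 fold change of 0.99 and was called higher without replicate 1 of October 17 (1.05) or replicate 2 of March 12 (1.02).

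None of the 4 tonoplast aquaporins (TIP) tested, water channels of the vacuole, was called by edgeR or DESeq2, with 2 at an unadjusted p under 0.05. DELTA-TIP had 178, 171 and 160.0 CPM on March 12 and 125, 107 and 102 CPM on October 17 (log2 fold change 0.61, 95% interval 0.18 to 1.04). GAMMA-TIP1 had 478, 266 and 352 CPM on March 12 and 334, 311 and 281 CPM on October 17, with overlapping dates, after 77.7 ± 17.3 CPM on January 15 (SD, n = 3). TIP3, with means of 1.45 CPM on March 12 and 0.772 CPM on October 17, was called higher without replicate 1 of October 17 (log2 fold change 1.15) or replicate 2 (1.13) or 3 (1.03) of March 12.

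**Figure D5:**
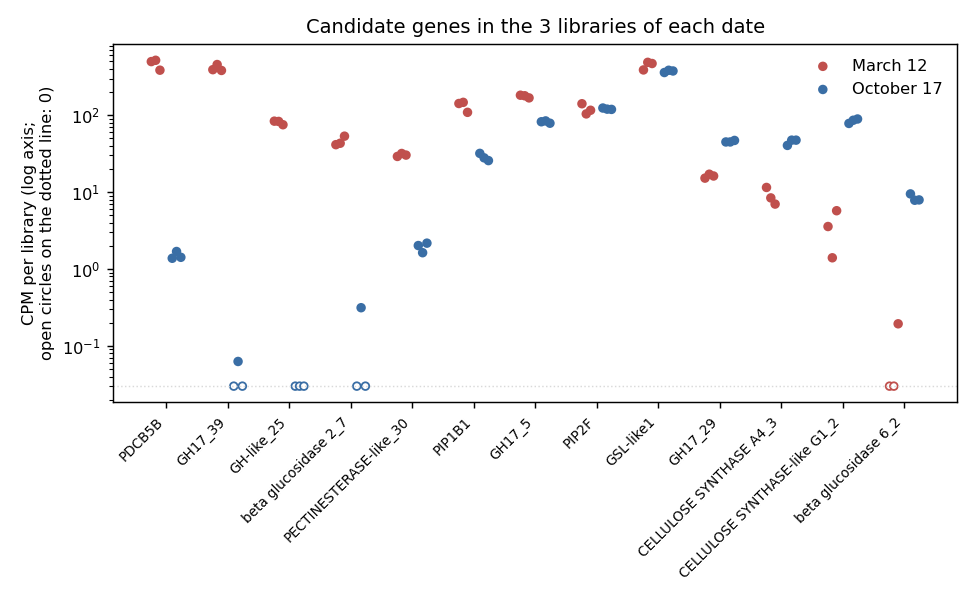
CPM per library (y axis, log axis) of 13 candidate genes (x axis) in the 3 libraries of March 12 (red) and of October 17 (blue), with libraries at 0 drawn as open circles on the dotted line. PDCB5B lay between 385 and 518 CPM on March 12 and under 2 CPM on October 17, PIP2F and GSL-like1 were at similar levels on the 2 dates, and the genes on the right were lower on March 12.

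Pectinesterases, which remove methyl groups from wall pectin and so change its stiffness and porosity, had the largest share of higher genes of any family with at least 10 members tested. Of 19 tested 12 were higher (63.2%, beside 13.2% of all genes) and 1 lower (5.26%, beside 7.73%), and the median log2 fold change was 2.77. Only these 19 of 56 listed genes were tested. A member hardly read in autumn and winter, such as PECTINESTERASE-like_18, passed the filter only through its March counts. The share, the median and the rank among families rest in part on such members. Several were hardly read in October. PECTINESTERASE-like_18 (PAV07g0349011) had 10.1, 14.4 and 7.28 CPM on March 12 and no count on October 17, at least 147-fold higher. PECTINESTERASE-like_19 had 25.5, 16.9 and 5.92 CPM on March 12, against 1 count on October 17. PECTINESTERASE-like_31 had 14.4, 19.4 and 13 CPM on March 12 and 0.0920, 0.188 and 0.203 CPM on October 17, 88.3-fold higher. Both the October and the winter levels of these genes were near 0, and the mean of PECTINESTERASE-like_31 was 0.185 CPM on February 12. PECTINESTERASE-like_32 (at least 28-fold higher) and PECTINESTERASE-like_36 (at least 26.1-fold, left out of the test by the rule on zeros) had no count on October 17 and means of 2.02 and 1.88 CPM on March 12.

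Further pectinesterases had an autumn level that was lost in winter and exceeded in March. PECTINESTERASE-like_30 had 29.1, 31.8 and 30.3 CPM on March 12 and 2.02, 1.63 and 2.17 CPM on October 17, 15.7-fold higher (edgeR adjusted p = 1.07e-10), after 0.355 ± 0.0397 CPM on January 3 (SD, n = 3). PECTINESTERASE-like_3 had 19.4, 16.2 and 16.6 CPM on March 12 and 5.80, 4.64 and 3.38 CPM on October 17 (log2 fold change 1.93, SE 0.29, edgeR adjusted p = 2.5e-05). PECTINESTERASE-like_33, whose best match in Arabidopsis is pectin methylesterase 31, was the lower one, with 62.3, 52.6 and 54.2 CPM on March 12 and 166, 167 and 158 CPM on October 17, 2.91-fold lower (edgeR adjusted p = 1.84e-09). PECTINESTERASE-like_5 kept within 2-fold, with 14.3, 10.1 and 14.3 CPM on March 12 and 14.7, 12.8 and 15.0 CPM on October 17.

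Pectinesterase inhibitors, proteins that block these enzymes, had 6 higher (31.6%, beside 13.2% of all genes) and 4 lower genes (21.1%, beside 7.73%) among 19 tested and a median log2 fold change of 0.81. PECTIN_INHIB_like_3 had 6.89, 6.57 and 3.20 CPM on March 12, against 1 count on October 17. PECTIN_INHIB_3 had 88.3, 72.5 and 74.8 CPM on March 12 and 26.9, 25.2 and 25 CPM on October 17 (log2 fold change 1.61, SE 0.14, edgeR adjusted p = 2.37e-08). PECTIN_INHIB_like_17 was lower, with 0.0811, 0.175 and 0.777 CPM on March 12 and 3.68, 2.76 and 2.64 CPM on October 17 (log2 fold change -3.16, SE 0.57, edgeR adjusted p = 0.000205). PECTIN_INHIB_like_3 passed the filter only through its March counts and PECTIN_INHIB_like_17 only through its October counts. The shares and the median of this family rest in part on such members. The higher calls of PECTIN_INHIB_like_20 and PECTIN_INHIB_like_21 were lost without replicate 3 of March 12 (edgeR adjusted p = 0.172 and 0.433) and without replicate 2 of October 17 (0.113 and 0.102). That of PECTIN_INHIB_like_20 was also lost without replicate 3 of October 17 (0.0565), and that of PECTIN_INHIB_like_21 without replicate 1 (0.0707). The lower call of PECTIN_INHIB_like_8 was lost without replicate 1 (0.14) or 3 (0.0817) of March 12, without a filter (0.0655), with the replicate block (0.0534) and with DESeq2 (0.176).

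Cellulose synthases, which spin out the load-bearing fibres of the wall, had 1 higher (9.09%, beside 13.2% of all genes) and 4 lower genes (36.4%, beside 7.73%) among 11 tested, with a median log2 fold change of -0.35. The pair with the largest decreases had its lowest mean in February. CELLULOSE SYNTHASE A4_3 (PAV08g0395591) had 11.5, 8.41 and 6.99 CPM on March 12 and 40.5, 47.4 and 47.4 CPM on October 17, 5.01-fold lower (edgeR adjusted p = 1.82e-06), with a mean of 0.543 ± 0.322 CPM on February 12 (SD, n = 3). Its neighbour CELLULOSE SYNTHASE A4_2 (PAV08g0395601) had 9.65, 8.67 and 8.64 CPM on March 12 and 32.4, 41.7 and 42.2 CPM on October 17, with 0.596 ± 0.256 CPM on February 12. In Arabidopsis CESA4 belongs to the complex that makes secondary walls, the thick walls of xylem and fibres. CELLULOSE SYNTHASE A2_1 and A2_2, with means of 612 and 238 CPM on March 12 and 781 and 189 CPM on October 17, were not called. The gene listed as a TED-type cellulose synthase, whose best match in Arabidopsis is a gene of tracheary element differentiation, was the only higher one of the 11, with 12.5, 7.53 and 8.74 CPM on March 12 and 0.368, 0.188 and 0.271 CPM on October 17 (log2 fold change 5.12, SE 0.44, edgeR adjusted p = 2.56e-08). It was hardly read in autumn and winter and passed the filter only through its March counts. Its call and the share of higher genes therefore add little to these counts.

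Cellulose synthase-like genes, which make other wall polysaccharides such as mannans and xyloglucan, had 5 higher (10.2%, beside 13.2% of all genes) and 7 lower genes (14.3%, beside 7.73%) among 49 tested, and 24.5% called is near the 20.9% of all genes. CELLULOSE SYNTHASE-like G1_2 (PAV01g0004451) had 3.57, 1.40 and 5.73 CPM on March 12 and 78.2, 86.0 and 89.3 CPM on October 17, 24.0-fold lower (log2 fold change -4.59, SE 0.23, edgeR adjusted p = 3.22e-11). It stood at 151 ± 14.7 CPM in December and 81.9 ± 11.3 CPM on February 12, so its low level was seen only in March, and its best match in Arabidopsis is a protein of unknown function, which leaves its name uncertain. CELLULOSE SYNTHASE-like_3_1 and CELLULOSE SYNTHASE-like_5_2 followed the course of the A4 genes. The first had 18.2, 14.1 and 13.7 CPM on March 12 and 47.0, 54.1 and 52.5 CPM on October 17, with 0.378 ± 0.246 CPM on February 12. The other had 10.5, 7.10 and 7.67 CPM on March 12 and 22.5, 33.2 and 31.7 CPM on October 17, with 0.447 ± 0.130 CPM on February 12. CELLULOSE SYNTHASE-like D3_4 was higher, with 46.3, 55.9 and 51.3 CPM on March 12 and 9.84, 10.0 and 8.12 CPM on October 17, after 0.761 ± 0.401 CPM on January 3. CELLULOSE SYNTHASE-like B4_1 had 1.30, 1.14 and 0.971 CPM on March 12 and no count on October 17, at least 15.7-fold higher. Its neighbour CELLULOSE SYNTHASE-like B4_2 (log2 fold change 0.40) was not called, nor was CELLULOSE SYNTHASE-like E1_4 (0.70). CELLULOSE SYNTHASE-like D3_3 (1.04) lost its higher call without replicate 3 of March 12 (0.90), among other settings. CELLULOSE SYNTHASE-like_2 (-1.01) lost its lower call without replicate 1 of October 17 (-0.98) or replicate 3 of March 12 (-0.93). CELLULOSE SYNTHASE-likeD3 (-2.22) lost its lower call without replicate 3 of October 17 (edgeR adjusted p = 0.0598) and with DESeq2 on the 6 libraries (0.0691).

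Genes of xylem formation, the list that stood for vascular tissue, had 2 higher and 2 lower genes among 18 tested, a share called of 22.2% that is near the 20.9% of all genes, and 10 kept within 2-fold. Myb domain protein 85 (PAV03g0140721), in Arabidopsis a regulator of lignin synthesis in secondary walls, had 46.2, 30.2 and 80.5 CPM on March 12 and 1.29, 1.82 and 0.880 CPM on October 17, 38.6-fold higher (log2 fold change 5.27, SE 0.52, edgeR adjusted p = 1.43e-07). It was already at 28.9 ± 12.2 CPM on February 12 (SD, n = 3). CLAVATA3/ESR-RELATED 42, of a family of small signal peptides that act in the cambium, the dividing layer of the vascular strand, had 9.0, 8.15 and 9.71 CPM on March 12 and 25.5, 24.7 and 22.5 CPM on October 17, 2.71-fold lower (edgeR adjusted p = 3.93e-08). Its winter means lay between 7.39 and 11.6 CPM, so the March level was within the range of the winter. WUSCHEL related homeobox 14 had 45, 47.3 and 45.1 CPM on March 12 and 90.6, 91.4 and 87.6 CPM on October 17, a log2 fold change of -0.97 that passes both thresholds with upper quartile factors (-1.01) or no filter (-1.0). Its December mean was 33.4 ± 1.60 CPM. Myb domain protein 7 was called lower (log2 fold change -1.08), but not without replicate 2 of March 12 (-0.97). Neither of the 2 cell wall invertases tested, which split sucrose in the apoplast, was called by edgeR or DESeq2 or had an unadjusted p under 0.05.

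Genes at a similar level on March 12 and October 17 could still have changed in between. Of the 14,562 genes kept within 2-fold, 1257 (8.63%) had a winter mean more than 2-fold below the lower of the 2 dates, and 652 (4.48%) one more than 2-fold above the higher. Among the 130 candidates kept within 2-fold, 27 (20.8%) had such a low point and 7 such a peak. The 27 include 6 GH17 genes, 5 GH9 genes and 4 plasmodesmata proteins, and none of the callose synthases. PDCB3A had 281, 267 and 256 CPM on March 12 and 341, 346 and 291 CPM on October 17, with 95.4 ± 30.2 CPM on February 12 (SD, n = 3). PDLP2 had 87.3, 89.2 and 73.6 CPM on March 12 and 75.1, 75 and 80.7 CPM on October 17, with 31.1 ± 5.92 CPM on January 15, and PDLP6B means of 7.03 CPM on March 12 and 7.36 CPM on October 17, with 1.27 ± 0.333 CPM on January 15. These low points are taken from means over 3 libraries as a description, and the winter dates were not tested here.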

How the data were processed

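RNA-seq reads of flower buds were trimmed by the authors with Trimmomatic 0.36, aligned with STAR to the 'Regina' genome and counted per gene with HTSeq, from stranded mRNA libraries. The deposited values are raw counts for 48,133 genes (13,282 without a count in all 18 libraries), and the authors pooled no replicates. Dates and replicates were taken from the labels. Those of December read December 17, 2012, whereas the study sampled on another December day of 2017, and these libraries are called December.

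Counts were fitted in R 4.3.3 with edgeR 4.0.16 (TMM and the quasi-likelihood test, 1 coefficient per date) over all 18 libraries. As in the study, genes with a mean count below 3, or without counts in more than 75% of the libraries, were removed. The thresholds for a call were 0.05 for the adjusted p and 1 for the size of the log2 fold change. Kept within 2-fold means that the 95% interval lay between -1 and 1. Where a date had no counts, 3 counts summed over its libraries were assumed and the fold is given as a minimum, and ratios against 1 to 3 counts carry an exact binomial interval for counting error only. Reads that align to several places are in general not counted by HTSeq, so values of near-identical neighbouring copies are uncertain. Each replicate is another tree. The p-values rest on the spread between trees within a date, pooled over all 6 dates with 12 residual degrees of freedom. They therefore do not measure the spread on March 12 and October 17 alone. This spread differed between dates, with the chi-square statistic of a pair of libraries from 1.89 (October 17) to 23.9 (January 15) times its degrees of freedom. The levels of the dates relative to October 17 used 0.1 CPM as pseudocount. Summaries used pandas 2.3.3, numpy 2.4.6 and scipy 1.17.1 under Python 3.11.15, and plots matplotlib 3.10.9.

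Named genes were the key candidates of the study, the largest called change of each family in each direction at 1 CPM or more, the 2 largest in each direction outside the candidates, and candidates dropped by the rule on zeros, with further candidates chosen after their values were seen. The members and lists were chosen with earlier results of these data known. Identifiers of 524 candidate entries matched as written, and 63 on contigs matched by their last digits. The alternatives were DESeq2 1.42.0, other size factors, filters and thresholds, the 6 libraries alone, a replicate block and leaving out each library. On simulated counts for 26,248 genes, with the changed ones drawn from the more abundant, the fit recovered 95 of 100 genes changed 3-fold and 100 of 100 changed 6-fold, with 1 false call. The simulation changed far fewer genes than the 5486 called here, up or down at random, and used the same dispersion at all dates. Its rates therefore do not carry over to this comparison. Gene ontology, gene lengths and sequences were not used here.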

Additional observations from a re-analysis of the deposited data

Results flagged for a closer look

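Signals outside the fit stood out on March 12. The rule on zeros left 128 genes with over 90% of their counts on March 12 untested. Among them were 4 candidates, GH17_39 with a mean of 409.5 CPM on March 12 and 1 count on October 17, GH-like_25 with 80.6 CPM, homeobox-3 with 18.2 CPM and PECTINESTERASE-like_36 with 1.88 CPM, the last 3 without a count on October 17. Without that rule edgeR called all 4 higher. They reach the limit on the mean count only through March 12, however, so these calls add nothing to the counts themselves. With 3 libraries per date, single libraries that stand apart from their group were not tested for.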

How the results depend on the processing

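Replacing TMM by DESeq2 size factors or upper quartile factors, edgeR by DESeq2, the 18 libraries by the 6 compared, or the filter by 4 others left the counts of higher and lower genes, of higher and lower candidates and of genes kept within 2-fold within 1.5 times their value. The fold threshold mattered most. With the adjusted p alone 7451 genes were higher and 6579 lower (121 and 68 of the candidates), and 53.1% of the calls were then higher, against 63% with the threshold. With a test against a 2-fold change itself (glmTreat of edgeR) 1934 genes were higher and 1058 lower (48 and 17 of the candidates), since that test asks for more evidence at the same fold. Leaving out 1 library gave 3191 to 3516 higher and 1920 to 2089 lower genes, 63 to 74 higher and 25 to 29 lower candidates, and 13,746 to 14,717 genes kept within 2-fold. Replicate numbers shared by the dates do not mark the same tree in the sources used here, and deviations of same-numbered libraries correlated at 0.0823, 0.0468 and -0.0149, so they were not taken as pairs. With the replicate block 3476 genes were higher and 2014 lower, 70 and 29 of them candidates. Of the 49 genes named by the fixed rule and tested 14 changed their call under some alternative, 5 of them at the thresholds used here, and none turned its direction. Over all candidates 35 changed their call at these thresholds. One of them turned its sign, beta glucosidase 36_35, with a log2 fold change of 0.65 and no call with all libraries and of -1.01 and a lower call without replicate 3 of March 12 (edgeR adjusted p = 0.0415). Upper quartile factors moved the median of all genes from 0.02 to -0.02. Levels under 1 CPM rest on few counts per library. Intervals within 2-fold were not computed for DESeq2.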

Other observations

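Called genes were spread over the genome. By the identifiers, 12.5% to 14.1% of the tested genes on chromosomes 1 to 8 were higher on March 12 and 7.05% to 8.57% lower, with 11.1% and 8.01% on the unplaced contigs. Runs of at least 5 neighbouring tested genes called in 1 direction numbered 17, of which 12 were higher and 5 lower, with 94 genes in all. The longest was a run of 9 genes on chromosome 1 that were all lower, with a summed level of 79.5 to 114 CPM in the March libraries and 1756 to 1864 CPM in the October libraries. A run of 5 genes on chromosome 2 had 57.3 to 142 CPM in the March libraries and 0.135 to 0.188 CPM in the October libraries. Neither of these runs holds a candidate, and neighbouring genes can be copies that share reads.

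The most abundant transcripts also differed between the dates. Of the 10 genes with the highest mean on each date 5 were shared. Among the 10 of March 12, 4 were called higher, each with a mean under 2 CPM on October 17, and among the 10 of October 17, 5 were called lower while none had a March mean under 503 CPM.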
